A study of Homo sapiens with 16 samples.

Results

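Progress through the cell cycle is driven by cyclins, their cyclin-dependent kinases (CDKs), the inhibitors of those kinases and the E2F transcription factors, and 38 of these genes are described here in OCI-AML3 cells. They were chosen by name: the rows of the deposited table, out of 62700 genes, whose Ensembl identifier belongs to a listed symbol. OCI-AML3 is an established line of human acute myeloid leukemia (AML), and RNA was sequenced from 16 libraries in 5 groups. The groups were untreated cells (n = 4), cells given ATRA at 0.1 µM (n = 3), cells given Am80 at 0.1 µM (n = 3), and cells given either retinoid together with GSK-LSD1 at 0.1 µM and MB3 at 100 µM (n = 3 for each), called the ATRA combination and the Am80 combination here. ATRA is all-trans retinoic acid, which activates all retinoic acid receptors, and Am80 (tamibarotene) is an agonist selective for RARA. GSK-LSD1 inhibits the histone demethylase LSD1 and MB3 inhibits the acetyltransferase GCN5. Treatment lasted 3 h, and the doses are those used for the AML lines. None of these libraries had the inhibitors alone, so the part of GSK-LSD1, the part of MB3 and their dependence on a retinoid cannot be told apart. All groups are 1 cell line, and the labels call the libraries repeats without naming separate cultures, so the p-values measure the spread between these libraries.

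In G1, D-type cyclins bind CDK4 and CDK6 and phosphorylate the pocket proteins RB1, RBL1 and RBL2, which releases the E2F factors that activate genes for DNA replication. E-type and A-type cyclins with CDK2 carry the cell into and through S phase, and B-type cyclins with CDK1 into mitosis. INK4 inhibitors act on CDK4 and CDK6, and CIP/KIP inhibitors on the later complexes. In myeloid cells, leaving the cycle goes along with terminal differentiation, and retinoids are known to bring on both in acute promyelocytic leukemia.

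Promoters of cell cycle genes can hold short elements through which E2F factors and the MuvB complex act. RefSeq windows of 300 bases (250 before and 50 after a transcription start, GRCh38.p14) were found for 30 of the 38 genes. The missing entries are CCND1, CCND2, CCNE2, CDK2, CDKN1C, E2F5, E2F8 and WEE1. Both strands were searched for the E2F element (TTTCCCGC, TTTCGCGC, TTTGCCGC or TTTGGCGC), for the cell cycle homology element TTTGAA, for the CCAAT box CCAAT and for the retinoid receptor half-site AGGTCA, none of which contains another. The E2F element was present for 7 of the 30 genes (CDC25A, CDK1, E2F1, E2F2, E2F3, RBL1 and TFDP1), or 23.3%, and in 3.31% of all 35116 windows. With TTTCCCGC and TTTGGCGC alone these shares were 16.7% and 2.27%. The CCAAT box was found for 53.3% of the genes and in 34.6% of all windows. TTTGAA was found for 20% of the genes against 15.2% of all windows, and AGGTCA for 10% against 13.8%, with RB1 among the 3 genes through a window at a start inside the gene. Genes with several windows have more letters to match than a single window, and a match describes letters only. The 250 bases before the start are shown, 5′ to 3′ on the strand of the gene, for E2F1 and CDK1, as a pair of genes with the E2F element, and for E2F7 and CDKN2D, which changed most among the E2Fs and the inhibitors. Where a gene had several windows, the one with the most matches before its start is shown. Capitals mark matches to any of the 4 elements.
E2F1, chr20:33686386-33686635, minus strand: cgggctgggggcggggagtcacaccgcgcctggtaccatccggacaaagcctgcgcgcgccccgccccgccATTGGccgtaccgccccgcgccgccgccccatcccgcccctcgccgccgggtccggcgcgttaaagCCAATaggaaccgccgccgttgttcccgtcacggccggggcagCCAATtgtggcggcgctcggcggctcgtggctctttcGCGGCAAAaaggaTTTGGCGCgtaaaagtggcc
CDK1, chr10:60778228-60778477, plus strand: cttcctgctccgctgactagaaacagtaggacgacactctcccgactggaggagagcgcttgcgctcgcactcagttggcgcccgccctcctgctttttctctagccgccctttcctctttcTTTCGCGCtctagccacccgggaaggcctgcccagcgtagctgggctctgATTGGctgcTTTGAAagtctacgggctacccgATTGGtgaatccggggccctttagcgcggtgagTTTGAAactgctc
E2F7, chr12:77065570-77065819, minus strand: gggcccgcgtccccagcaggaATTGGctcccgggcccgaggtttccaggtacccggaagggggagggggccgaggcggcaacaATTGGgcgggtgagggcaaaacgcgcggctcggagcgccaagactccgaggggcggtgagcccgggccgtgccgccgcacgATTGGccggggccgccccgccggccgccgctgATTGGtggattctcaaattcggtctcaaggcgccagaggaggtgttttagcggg
CDKN2D, chr19:10568980-10569229, minus strand: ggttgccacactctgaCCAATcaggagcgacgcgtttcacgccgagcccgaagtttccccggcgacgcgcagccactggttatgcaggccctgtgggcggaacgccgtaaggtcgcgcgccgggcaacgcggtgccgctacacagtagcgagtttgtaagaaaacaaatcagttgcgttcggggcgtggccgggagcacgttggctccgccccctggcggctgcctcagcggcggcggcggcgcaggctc
The E2F1 stretch held the E2F element at positions -33 and -20 from the start and 3 CCAAT boxes. That of CDK1 held 1 E2F element at -128, 2 copies of TTTGAA at -69 and -13, and 2 CCAAT boxes. In another CDK1 window, not shown, the E2F element lay after the start, at position 20. TTTGAA lay at -161 and CCAAT at -150 there. That of E2F7 held 4 CCAAT boxes and that of CDKN2D held 1, with none of the other elements in either.

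Values are normalized counts, in which the reads of a library are divided by its size factor. Between 11963898 and 33789718 reads were counted per library. The 8 myeloid markers (PTPRC, SPI1, CD33, CSF3R, MPO, LYZ, CEBPA and ANPEP) were all present, with sums of 33795 to 37605 in untreated cells and 29873 to 33054 over the treated groups. Within these sums single markers moved in different directions. LYZ had means of 11102 in untreated cells, 6978 with ATRA, 7950 with Am80, 11369 in the ATRA combination and 11373 in the Am80 combination. Those of CEBPA were 6414, 7062, 7588, 4033 and 4682 in the same order. MPO was lowest, with group means of 30.9 to 46.9. Of 8 genes listed as markers of other lineages, PECAM1 exceeded a mean of 10. CD3E, CD3D, MS4A1, HBB, ALB, EPCAM and COL1A1 had at most 4 reads in any library. The sum of these 8, nearly all of it PECAM1, was 989 to 1171 in untreated cells, 2508 to 2778 with a retinoid and 1652 to 2152 with the combinations. PECAM1 alone had means of 1090 in untreated cells, 2594 with ATRA, 2671 with Am80, 1971 in the ATRA combination and 1739 in the Am80 combination. It was present in every group of this cell line and is not read as a sign of another lineage. The share of reads on mitochondrial genes was 6.02% to 7.53% without the inhibitors and 7.07% to 9.21% with them. The part of these shifts in the results below was not tested. DHRS3, CYP26B1 and RARB, known retinoid targets, rose in every treated group. Their log2 fold changes against untreated cells were 5.85 to 6.46 for DHRS3, 6.65 to 8.89 for CYP26B1 and 4.24 to 4.68 for RARB. Their means were lower with the inhibitors than without. CYP26B1 had 572 with ATRA, 389 with Am80, 138 in the ATRA combination and 120 in the Am80 combination. DHRS3 had 2339, 2425, 1602 and 1676 in the same order, and RARB 128, 153, 112 and 117. Among repeats, 2 libraries stood apart: the chi-square per degree of freedom reached 23.4 in pairs with untreated replicate 4 and 25.9 in pairs with Am80 replicate 2, and was 2.75 to 6.23 in the pairs without them. Calls that change without either are named with the gene. In bulk RNA, fewer cells in a phase and less RNA per cell cannot be told apart.

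Before treatment the whole machinery was expressed apart from a few members. Per kilobase of exon, the levels of the 38 genes in untreated cells ran from 1346 ± 60.5 (SD, n = 4) normalized counts for TFDP1 down to 0.205 ± 0.239 for the CIP/KIP inhibitor CDKN1C. E2Fs other than E2F7 and E2F8 bind DNA with a DP partner such as TFDP1. TFDP1 stood above the next gene without overlap. CCNB1 (1013 ± 57.4), CCND3 (974 ± 116) and CCNA2 (962 ± 39.7) followed, with overlapping values. CCND3 was the leading D-type cyclin on this scale, above CCND1 at 388 ± 20.4, while CCND2 was near the floor at 0.342 ± 0.295. CDK4 (719.8 ± 106) lay above CDK6 (284 ± 61.0), and CDK1 (628 ± 71.1) above CDK2 (308 ± 9.75). Among the inhibitors, CDKN1B led with 651 ± 45.4, and the INK4 genes followed as CDKN2C (213 ± 25.7), CDKN2D (50.6 ± 7.55), CDKN2A (32.7 ± 7.25) and CDKN2B (20.4 ± 3.74). CDKN2C and CDKN2D did not overlap each other, nor did CDKN2D and CDKN2B, whereas CDKN2A at its highest reached CDKN2D at its lowest. Of the E2Fs, E2F4 was highest (683 ± 34.4), E2F3 (404 ± 16.2) and E2F1 (389 ± 34.1) overlapped, and E2F7 (32.1 ± 1.72) and E2F5 (22.5 ± 2.18) were lowest. Divided by the longest transcript instead of all exons, CCND3 took the first rank from TFDP1 and CDK1 moved from rank 8 to rank 3. CDKN2A then stood above CDKN2D, with means of 110 and 53.4. The order of the genes, that of the INK4 genes included, thus depends on the length used.

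**Figure D1:**
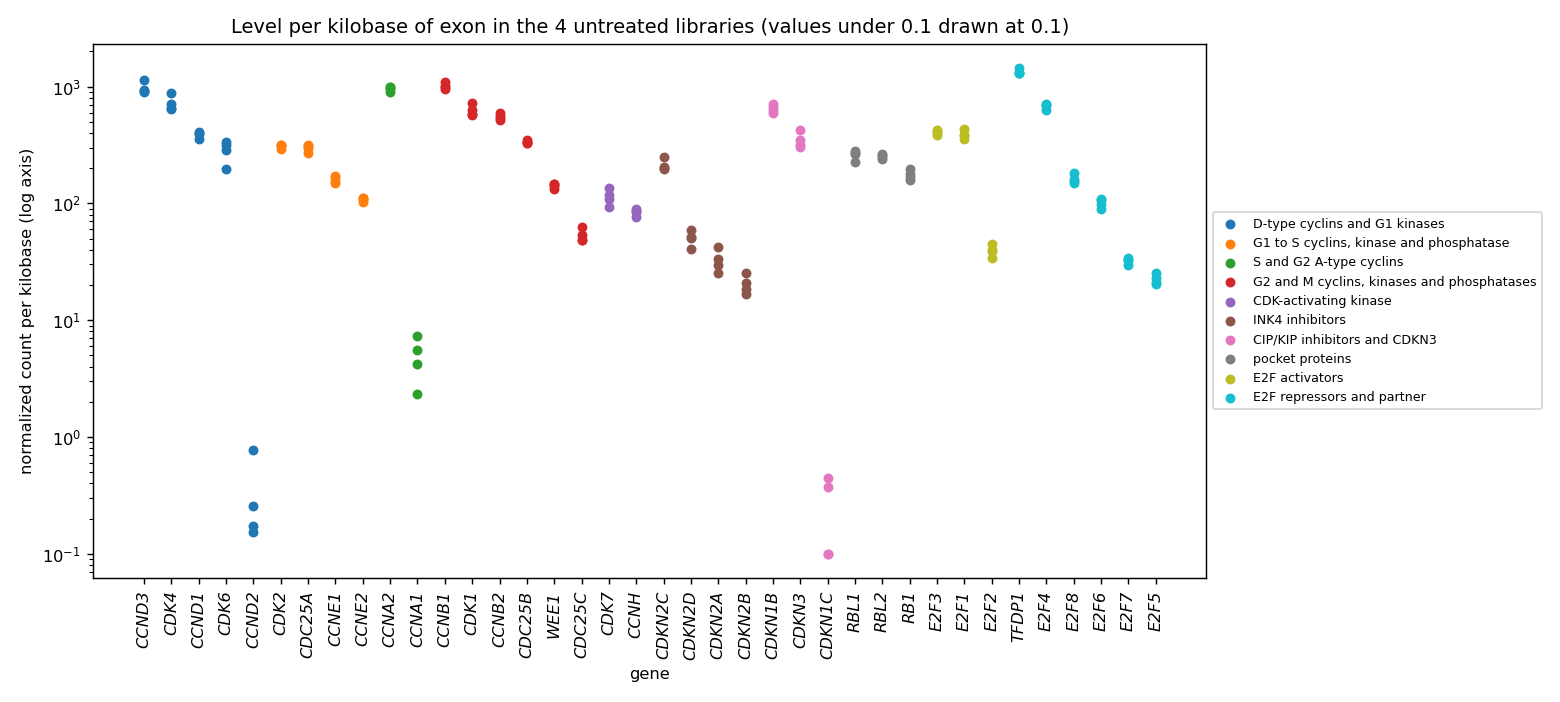
Normalized counts per kilobase of exon (y axis, log scale) of the 38 genes in the 4 untreated libraries, 1 point per library, grouped and coloured by role. TFDP1 is highest at a mean of 1346, and CCNA1, CCND2 and CDKN1C lie below all other genes; values under 0.1 are drawn at 0.1.

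CDKN1C had at most 3 reads in every library and CCND2 between 0 and 12 reads, so both fell under the filter and no comparison was made for them. The other 36 genes were tested in 1 limma fit over 14643 genes, and a gene was called where the Benjamini-Hochberg adjusted p was under 0.05 and the change was above 1.5-fold, a log2 fold change of 0.585 in size. Differences are on the log2(normalized count + 1) scale.

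The retinoids alone changed few of the 36. ATRA gave 2 calls (5.56%, beside 9.45% of all genes tested), 1 higher and 1 lower, where 6.52% and 2.94% of all genes were. Am80 gave 3 calls (8.33%, all genes 10.2%), 1 higher and 2 lower, where 6.41% and 3.76% were. The ATRA combination gave 7 calls against untreated cells (19.4%, all genes 29.1%), 1 higher and 6 lower, where 14.2% and 14.8% were. The Am80 combination gave 9 (25%, all genes 26%), 2 higher and 7 lower, where 12.9% and 13.1% were. Adding the inhibitors to ATRA gave 8 calls (22.2%, all genes 19.5%), 4 in each direction, where 8.15% were higher and 11.4% lower. Adding them to Am80 gave 7 (19.4%, all genes 15.7%), 1 higher and 6 lower, where 6.81% and 8.9% were. The share in the set was under that of all genes in the 4 comparisons with untreated cells and slightly above it in the other two, and nothing particular to the set is read from these counts.

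By adjusted p alone, whatever the size of the change, 11 of the 36 passed with ATRA (24.6% of all genes) and 11 with Am80 (28.8%). The ATRA combination gave 22 (60.2%) and the Am80 combination 25 (54.7%). The inhibitors gave 20 when added to ATRA (49.3%) and 19 when added to Am80 (39.5%). Over the 36 genes the median difference from untreated cells was -0.08 for ATRA, -0.01 for Am80, -0.13 for the ATRA combination and -0.16 for the Am80 combination, and over all genes tested it lay between -0.02 and -0.00292. When libraries were scaled to total reads in place of size factors, the median of all genes moved to -0.15 and -0.19 in the combinations, and 31.9% and 29.2% of the called genes were then higher, in place of 49% and 49.7%. None of the 36 calls among the members reversed its direction under an alternative. The comparisons with untreated cells share the same 4 libraries, and each retinoid group serves in several comparisons.

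**Figure D2:**
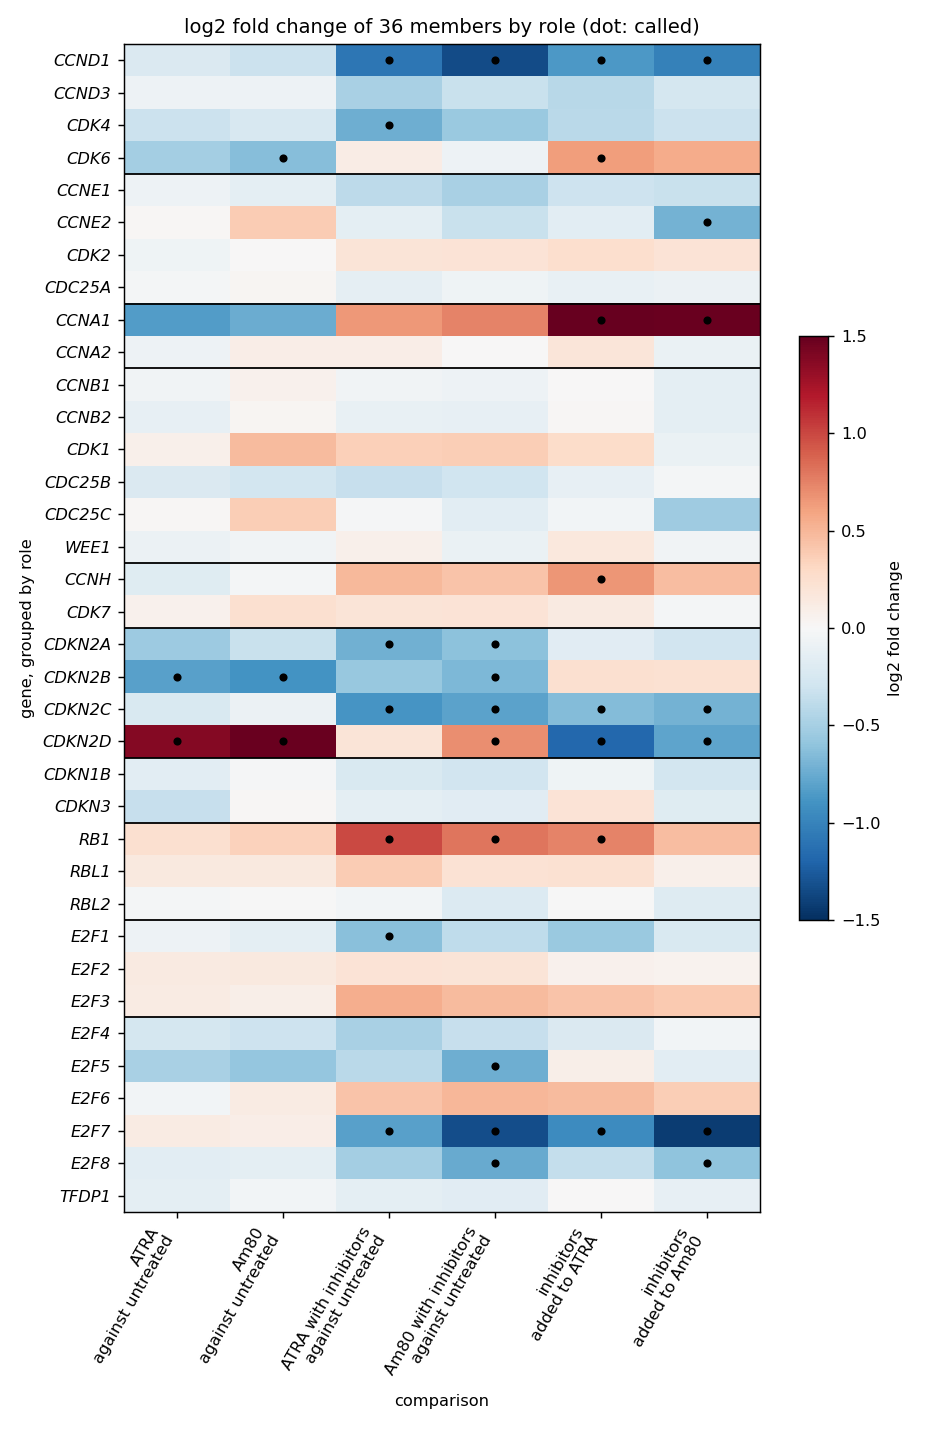
Log2 fold change (colour) of the 36 tested genes (rows, grouped by role) in 6 comparisons (columns), with a dot where a gene was called. Blue is lower and red is higher in the first-named group. CDKN2D has 5 dots, CCND1, CDKN2C and E2F7 have 4 each, and RB1 and CDKN2B have 3 each. CDKN2A, E2F8, CDK6 and CCNA1 have 2 each, and the 6 rows from CCNB1 to WEE1 hold none.

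The D-type cyclin CCND1 (ENSG00000110092.4) was lower in both combinations than in any other group. Its normalized counts were 1920.3, 1885, 1962 and 1735 in untreated cells, 1619, 1615 and 1588 with ATRA and 1463, 1516 and 1510.1 with Am80. They were 961, 834 and 867 in the ATRA combination and 773, 756 and 693 in the Am80 combination. No library of either combination reached the lowest library of any other group. CCND1 fell in the ATRA combination (log2 fold change -1.08, 95% interval -1.22 to -0.94, adjusted p = 2.18e-11) and in the Am80 combination (log2 fold change -1.34, 95% interval -1.48 to -1.20, adjusted p = 5.45e-13). The step from ATRA to the ATRA combination was -0.86 on the log2 scale and that from Am80 was -1.02, both called. The retinoids alone gave differences of -0.22 (adjusted p = 0.0163) and -0.32 (adjusted p = 0.000683), under the fold limit. CCND3, the more abundant D-type cyclin, had log2 fold changes of -0.49 and -0.33 with the combinations (adjusted p = 0.000122 and 0.00456), also under the limit. The first was called at -0.69 with quantile normalization and -0.64 with libraries scaled to total reads. CCND1 overlaps LTO1 on the other strand, and the strand setting of the counting is not given in the sources used here.

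Of the 2 kinases that D-type cyclins bind, CDK4 was lower in both combinations. It had 2234, 2053, 2066 and 2768 normalized counts in untreated cells, 1699 to 1874 with ATRA, 1702 to 2123 with Am80, 1388, 1347 and 1354 in the ATRA combination and 1672, 1508 and 1428 in the Am80 combination. All combination libraries lay below all untreated ones. It fell in the ATRA combination (log2 fold change -0.73, 95% interval -0.93 to -0.54, adjusted p = 1.16e-06), and in the Am80 combination it stayed just under the fold limit (log2 fold change -0.56, 95% interval -0.76 to -0.37, adjusted p = 3.29e-05). That difference was called at -0.61 without untreated replicate 2 or 3, at -0.62 without Am80 combination replicate 1, at -0.59 by edgeR, at -0.73 with quantile normalization and at -0.75 with libraries scaled to total reads. CDK4 overlaps TSPAN31 and MARCH9 on the other strand.

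CDK6 had its lowest counts with the retinoids alone and in 1 untreated library. Normalized counts of the gene were 4105, 3542, 3856 and 2412 in untreated cells, 2423, 2385 and 2360.3 with ATRA, 2147, 2296 and 2138 with Am80, 3779, 3745 and 3549 in the ATRA combination and 3258, 3169.5 and 3286 in the Am80 combination. The fourth untreated library lay inside the range of the ATRA libraries, far below the other 3. CDK6 fell with Am80 (log2 fold change -0.64, 95% interval -0.87 to -0.40, adjusted p = 0.000205), a call lost without untreated replicate 1 (-0.55) or replicate 3 (-0.58). With ATRA it was -0.51 (adjusted p = 0.00191), not called, and -0.68 and called without untreated replicate 4. Inhibitors added to ATRA raised it (log2 fold change 0.63, 95% interval 0.37 to 0.88, adjusted p = 0.00029), but by 0.48 with libraries scaled to total reads and 0.47 with quantile normalization, under the limit. Inhibitors added to Am80 gave 0.56 (adjusted p = 0.00102), under the limit, and 0.60, called, without Am80 replicate 2.

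Of CCNE1, CCNE2, CDK2 and CDC25A, the phosphatase that activates CDK2, none was called against untreated cells in any of the 4 treatments. CCNE2 had 453, 491, 468 and 489 normalized counts in untreated cells, 495, 439 and 516 with ATRA, 649, 674 and 537 with Am80, 425, 436 and 431 in the ATRA combination and 374, 382 and 377 in the Am80 combination. The Am80 libraries were the highest and the Am80 libraries with inhibitors the lowest, without overlap with the untreated ones. CCNE2 fell when inhibitors were added to Am80 (log2 fold change -0.71, 95% interval -0.89 to -0.52, adjusted p = 2.29e-06), and the same step from ATRA gave -0.16 (adjusted p = 0.128). The difference between the 2 steps was -0.54 (95% interval -0.80 to -0.29, adjusted p = 0.226), not called, and -0.64 (adjusted p = 0.0429) without Am80 replicate 3. CCNE1 differed from untreated cells by -0.39 and -0.48 on the log2 scale with the combinations (adjusted p = 0.000203 and 2.31e-05), under the fold limit, and the second was called at -0.67 with libraries scaled to total reads. CDK2 differed by at most 0.25 and CDC25A by at most 0.14 in any of the 6 comparisons. CCNE2 overlaps INTS8 and NDUFAF6 on the other strand.

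CCNA2, CCNB1 and CCNB2, cyclins of S phase, G2 and mitosis, were nearly flat against untreated cells. CCNA2, which serves CDK2 and then CDK1, had 2537 to 2773 normalized counts in untreated cells and 2602 to 2836 in the Am80 combination, with a difference of 0.00 (95% interval -0.13 to 0.14). CCNB1, the mitotic cyclin, ranged from 2452 to 2799 in untreated cells and from 2431 to 2497 in the Am80 combination. Its differences from untreated cells lay between -0.07 and 0.07 over the 4 treatments, and those of CCNB2 between -0.13 and 0.03. The 95% interval of each of these differences stayed inside the 1.5-fold limit, so changes of that size are outside the intervals. CDK1, the mitotic kinase, stood higher in several groups. Its normalized counts were 2308, 2473, 2237 and 2862 in untreated cells, 2622, 2278 and 2928 with ATRA, 3659, 3441 and 3140.3 with Am80, 2927 to 3410.5 in the ATRA combination and 2986 to 3347 in the Am80 combination. The Am80 and combination libraries all lay above the untreated ones, by 0.47 with Am80 (adjusted p = 0.000445), 0.36 in the ATRA combination (adjusted p = 0.00201) and 0.37 in the Am80 combination (adjusted p = 0.00163). All 3 stayed under the fold limit. Of the CDC25 phosphatases, which remove the inhibitory phosphates that WEE1 adds, CDC25B differed from untreated cells by -0.34 to -0.22 over the 4 treatments, with adjusted p from 0.000225 to 0.0224, and CDC25C was 0.37 with Am80 (adjusted p = 0.0255). CDC25C was -0.53 when inhibitors were added to Am80 (adjusted p = 0.00276), under the limit, and called at -0.65 with libraries scaled to total reads. WEE1 differed from untreated cells by at most 0.10 in size.

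CCNA1, the A-type cyclin known from germ cells and from myeloid leukemia, was detected at 4 to 20 reads per library. Normalized counts of the gene were 5.58, 10.2, 17.4 and 13.3 in untreated cells, 3.86, 7.76 and 5.76 with ATRA, 3.71, 5.70 and 10.1 with Am80, 19.5, 15.2 and 18.2 in the ATRA combination and 17.5, 26.1 and 14.2 in the Am80 combination. Each combination lay above its retinoid without overlap, while the untreated libraries overlapped every group. Inhibitors raised it over ATRA (log2 fold change 1.49, 95% interval 0.67 to 2.32, adjusted p = 0.00403) and over Am80 (log2 fold change 1.48, 95% interval 0.66 to 2.31, adjusted p = 0.00542). Against untreated cells the combinations gave 0.65 and 0.74 (adjusted p = 0.135 and 0.0984), not called. Without untreated replicate 1 the retinoids alone were called at -1.12 and -1.02, and without untreated replicate 3 the Am80 combination at 0.95. With quantile normalization the retinoids alone were called at -1.42 and -1.14. The group means were 11.6 in untreated cells, 5.79 with ATRA, 6.51 with Am80 and 17.6 and 19.3 in the combinations, so CCNA1 passed the filter, a mean of 10 over all libraries, through the groups where it is high. Its 2 calls, which are among the 8 and 7 counted for the inhibitors, are therefore a description. With these few reads the intervals are wide and the added count of 1 makes the fold changes smaller.

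Cyclin H (CCNH) and CDK7 form the kinase that activates the other CDKs and is part of TFIIH. CCNH had 517, 467, 548 and 522 normalized counts in untreated cells, 428 to 470.5 with ATRA, 436 to 593 with Am80, 712, 739 and 698 in the ATRA combination and 647, 716 and 709 in the Am80 combination. Every combination library exceeded every other library. CCNH rose when inhibitors were added to ATRA (log2 fold change 0.66, 95% interval 0.46 to 0.86, adjusted p = 1.2e-05), but by 0.51 when libraries were scaled to total reads, under the limit. Added to Am80 they gave 0.46 (adjusted p = 0.000696). CDK7 passed no test, with differences from untreated cells of 0.06 to 0.24. CCNH overlaps RASA1 on the other strand.

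The INK4 inhibitors held the only tested gene of the set that rose past the 1.5-fold limit with the retinoids alone. CDKN2D (ENSG00000129355.7), an inhibitor of CDK4 and CDK6, had 76.7, 77.6, 61.0 and 88.6 normalized counts in untreated cells, 174, 206 and 212 with ATRA and 224, 171 and 250.2 with Am80. With the inhibitors it had 89.8, 97.8 and 72.7 beside ATRA and 118, 143 and 108 beside Am80. All retinoid libraries lay above all other libraries. CDKN2D rose 2.59-fold with ATRA (log2 fold change 1.37, 95% interval 1.05 to 1.69, adjusted p = 5.22e-07) and 2.79-fold with Am80 (log2 fold change 1.48, 95% interval 1.16 to 1.80, adjusted p = 1.65e-07). It fell again when the inhibitors were added, by a log2 fold change of -1.18 from ATRA (adjusted p = 7.58e-06) and -0.79 from Am80 (adjusted p = 0.000658). In the ATRA combination it overlapped the untreated libraries (log2 fold change 0.19, 95% interval -0.13 to 0.51, adjusted p = 0.293). In the Am80 combination it stayed above all of them (log2 fold change 0.69, 95% interval 0.37 to 1.01, adjusted p = 0.000686), a call lost without Am80 combination replicate 2 (0.58) and under scaling to total reads (0.51).

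CDKN2B, its neighbour in function, went the other way. It had 103, 68.3, 74.7 and 84.2 normalized counts in untreated cells, 50.1, 40.5 and 48.3 with ATRA, 39.0, 43.5 and 47.7 with Am80, 45.9, 66.3 and 53.4 in the ATRA combination and 49.3, 55.0 and 48.9 in the Am80 combination. The untreated libraries were the highest in each comparison, without overlap. CDKN2B fell with ATRA (log2 fold change -0.81, 95% interval -1.15 to -0.47, adjusted p = 0.000845) and with Am80 (log2 fold change -0.90, 95% interval -1.24 to -0.56, adjusted p = 0.000257). It fell in the Am80 combination (log2 fold change -0.67, 95% interval -1.01 to -0.32, adjusted p = 0.00181), a call lost without untreated replicate 1 (-0.56) and with quantile normalization (-0.54). In the ATRA combination it was -0.57 (adjusted p = 0.00532), just under the limit, and called at -0.71 without ATRA combination replicate 2, at -0.66 without untreated replicate 2, at -0.61 without untreated replicate 3 and at -0.72 with libraries scaled to total reads.

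CDKN2C, another INK4 inhibitor, fell where the inhibitors were present and was not called with either retinoid alone. Its normalized counts were 675, 665, 651 and 833 in untreated cells, 608, 556 and 629 with ATRA, 689, 550.4 and 754 with Am80, 399, 339 and 405 in the ATRA combination and 434, 390.3 and 382 in the Am80 combination. All combination libraries lay below all the others. CDKN2C fell in the ATRA combination (log2 fold change -0.89, 95% interval -1.11 to -0.66, adjusted p = 5.15e-07) and in the Am80 combination (log2 fold change -0.81, 95% interval -1.03 to -0.58, adjusted p = 1.92e-06). The inhibitors gave -0.65 when added to ATRA and -0.71 when added to Am80 (adjusted p = 9.49e-05 and 4.52e-05), and the first call was lost without ATRA combination replicate 2 (-0.57).

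CDKN2A encodes both an INK4 inhibitor and, in another reading frame, the p53 activator ARF, which gene counts do not separate. It had 128, 109, 146 and 183 normalized counts in untreated cells, 90.6, 97.5 and 95.8 with ATRA, 119.8, 80.8 and 139 with Am80, 85.9, 90.2 and 76.2 in the ATRA combination and 98.7, 97.6 and 77.2 in the Am80 combination. The untreated libraries were spread widely and lay above both combinations. CDKN2A fell in the ATRA combination (log2 fold change -0.72, 95% interval -1.08 to -0.36, adjusted p = 0.00129) and in the Am80 combination (log2 fold change -0.61, 95% interval -0.97 to -0.25, adjusted p = 0.00533). The second call was lost without untreated replicate 4 or with the replicate number as a block (-0.48), without Am80 combination replicate 3 (-0.50) and with quantile normalization (-0.50). With ATRA alone it was -0.55 (adjusted p = 0.0239), under the limit, and called at -0.59 without untreated replicate 1 or with quantile normalization and -0.67 without untreated replicate 2. CDKN2A and CDKN2B both overlap CDKN2B-AS1 on the other strand, and reads from that antisense gene cannot be told apart without strand.

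CDKN1B, the abundant CIP/KIP inhibitor of CDK2 complexes, was not called. Normalized counts of the gene were 1683 to 1983 in untreated cells and 1413 to 1550.1 in the Am80 combination, a difference of -0.29 (adjusted p = 0.00263). CDKN3, a phosphatase that acts on CDK2, was -0.35 with ATRA (adjusted p = 0.0187) and 0.02 with Am80, and was not called.

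**Figure D3:**
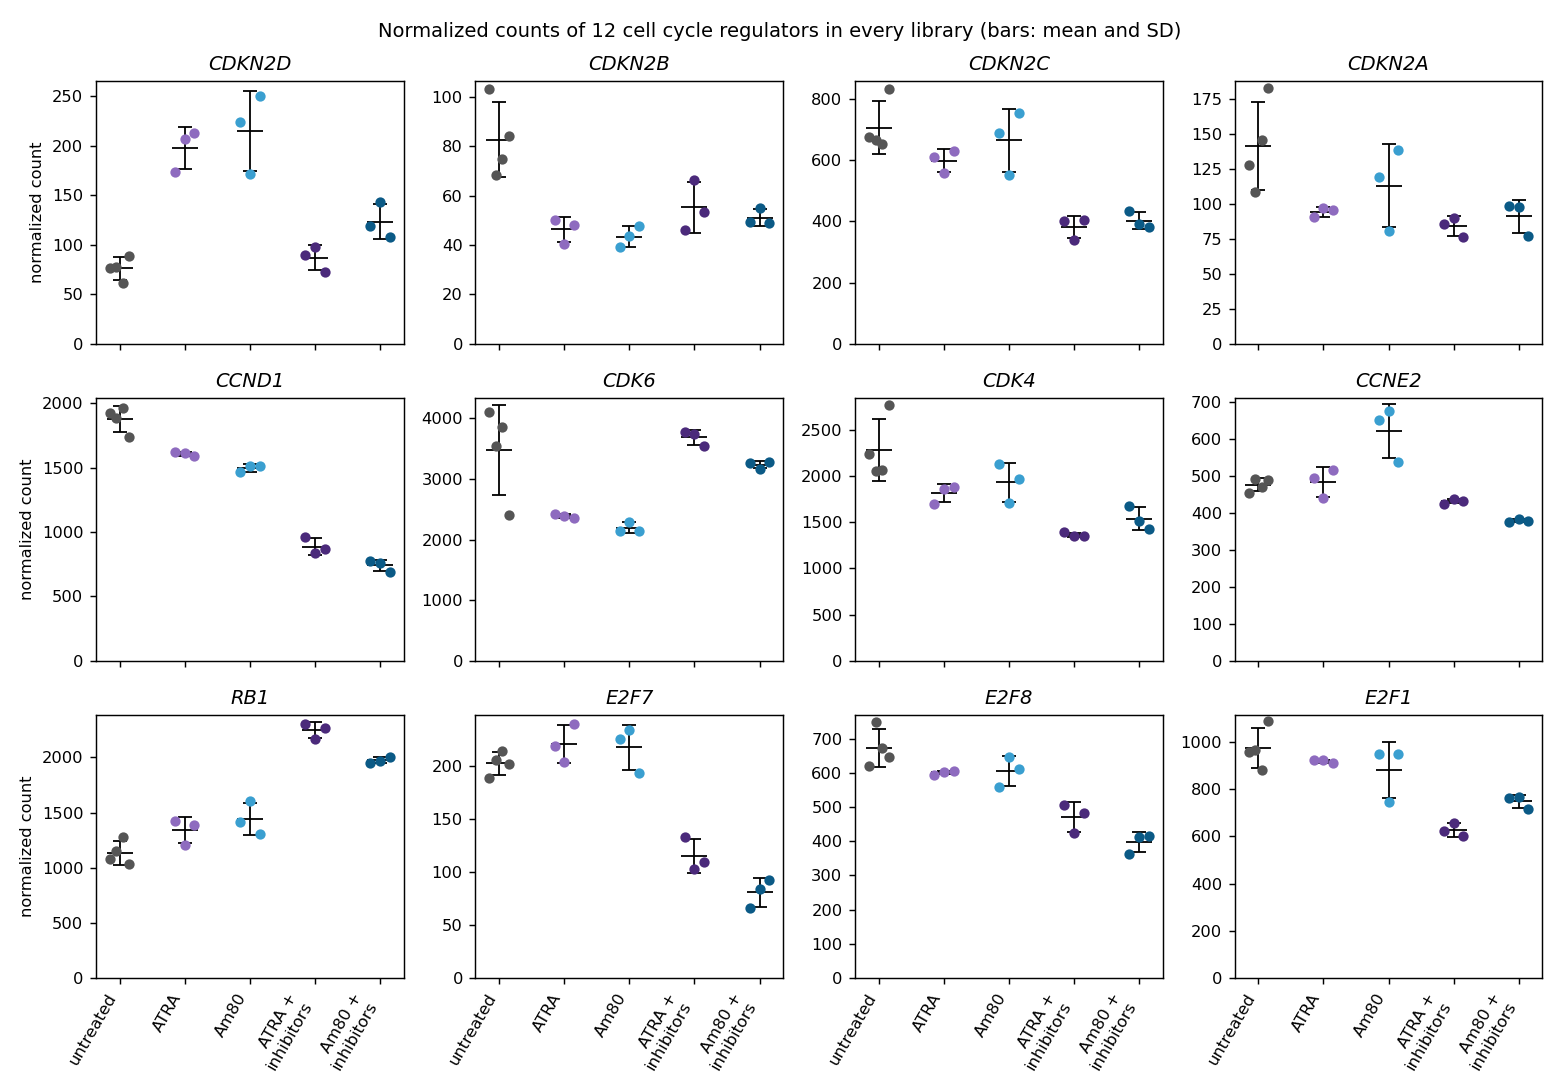
Normalized counts (y axis, linear from 0) of 12 of the genes in the 16 libraries, 1 point per library, with the mean and SD of each group (untreated n = 4, others n = 3). CDKN2D is highest with either retinoid alone, CCND1 and E2F7 are lowest with the combinations, and RB1 is highest there; 1 untreated library of CDK6 lies at 2412, among the ATRA libraries.

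RB1 (ENSG00000139687.16), the pocket protein that holds E2F activators in check, was the only tested gene of the set called higher with both combinations. It had 1078, 1151, 1275 and 1030.4 normalized counts in untreated cells, 1428, 1207 and 1388 with ATRA and 1417, 1601 and 1306 with Am80. It had 2305, 2167 and 2266 in the ATRA combination and 1948, 1969.6 and 2007 in the Am80 combination. The combinations exceeded every other library. RB1 rose 1.99-fold in the ATRA combination (log2 fold change 0.99, 95% interval 0.82 to 1.16, adjusted p = 2.16e-09) and 1.75-fold in the Am80 combination (log2 fold change 0.80, 95% interval 0.64 to 0.97, adjusted p = 4.34e-08). Inhibitors added to ATRA raised it (log2 fold change 0.75, 95% interval 0.57 to 0.93, adjusted p = 8.3e-07), and added to Am80 they gave 0.46 (adjusted p = 0.000254), under the limit. The retinoids alone gave 0.24 and 0.35 (adjusted p = 0.0318 and 0.00249), under the limit. RB1 contains or overlaps LPAR6, RCBTB2 and other genes on the other strand. RBL1 was higher by 0.38 in the ATRA combination (adjusted p = 0.000413) and by 0.22 in the Am80 combination (adjusted p = 0.0271), and RBL2 differed from untreated cells by -0.20 to -0.01. Neither was called.

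Of the E2F activators, E2F1 was the one called. It had 959, 965, 883 and 1089 normalized counts in untreated cells, 923, 923 and 913 with ATRA, 948, 745 and 951 with Am80, 624, 659 and 600.1 in the ATRA combination and 765, 766 and 715 in the Am80 combination. Both combinations lay below the untreated libraries. E2F1 fell in the ATRA combination (log2 fold change -0.63, 95% interval -0.81 to -0.45, adjusted p = 2.29e-06), a call lost without untreated replicate 4 or with the replicate number as a block (-0.58), and in the Am80 combination it was -0.38 (adjusted p = 0.000796), under the limit. Inhibitors added to ATRA gave -0.55 (adjusted p = 5.08e-05), under the limit, and called at -0.59 without ATRA combination replicate 2 and at -0.70 with libraries scaled to total reads. E2F3 was higher in both combinations. Its normalized counts were 1985 to 2175 in untreated cells, 2933 to 3184 in the ATRA combination and 2849 to 2940.5 in the Am80 combination, without overlap. The log2 fold changes of 0.55 and 0.48 (adjusted p = 1.32e-07 and 8.27e-07) stayed under the limit. E2F2 differed from untreated cells by 0.14 to 0.21 and passed no test.

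E2F7 and E2F8, the atypical repressors that bind DNA without a DP partner, were lowest in the combinations. E2F7 (ENSG00000165891.16) had 188, 206, 214 and 202 normalized counts in untreated cells, 219, 204 and 239 with ATRA and 226, 234 and 194 with Am80. It had 133, 103 and 109 in the ATRA combination and 65.8, 83.8 and 92.7 in the Am80 combination. The 2 combinations lay below all other libraries. E2F7 fell in the ATRA combination (log2 fold change -0.82, 95% interval -1.07 to -0.56, adjusted p = 9.17e-06) and in the Am80 combination (log2 fold change -1.33, 95% interval -1.58 to -1.07, adjusted p = 1.38e-08). The step on adding the inhibitors was -0.94 from ATRA (adjusted p = 8.5e-06) and -1.43 from Am80 (adjusted p = 4.34e-08), both called.

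E2F8 had 619, 749, 674 and 646 normalized counts in untreated cells, 595 to 606 with ATRA, 559 to 645 with Am80, 507, 423 and 483 in the ATRA combination and 363, 414 and 415 in the Am80 combination. Both combinations lay below the other groups. E2F8 fell in the Am80 combination (log2 fold change -0.76, 95% interval -0.93 to -0.58, adjusted p = 1.97e-07), and in the ATRA combination it was -0.51 (adjusted p = 2.74e-05), under the limit, and called at -0.66 with libraries scaled to total reads. It fell when inhibitors were added to Am80, at -0.61 (adjusted p = 2.03e-05), a call lost without Am80 replicate 2 (-0.56), without Am80 combination replicate 1 (-0.54) and with quantile normalization (-0.57).

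Among the repressors that work with pocket proteins, E2F5 had 121, 151, 126 and 135 normalized counts in untreated cells, 89.7 to 99.4 with ATRA, 78.8 to 106 with Am80, 92.7 to 108 in the ATRA combination and 84.4, 71.5 and 83.7 in the Am80 combination. Every treated library was below every untreated one. E2F5 fell in the Am80 combination (log2 fold change -0.73, 95% interval -0.99 to -0.47, adjusted p = 5.21e-05), and with Am80 alone it was -0.58 (adjusted p = 0.00145), just under the limit, and called at -0.70 without Am80 replicate 2, -0.62 without untreated replicate 1, -0.60 without untreated replicate 3, -0.59 with quantile normalization and -0.64 with libraries scaled to total reads. E2F4, the most abundant E2F, differed from untreated cells by -0.49 to -0.26 over the 4 treatments, with adjusted p of at most 0.0123, under the limit, and was called at -0.63 in the ATRA combination with quantile normalization and with libraries scaled to total reads. E2F6, which represses without pocket proteins, was higher by 0.43 and 0.50 with the combinations (adjusted p = 0.000231 and 5.86e-05), under the limit. TFDP1 differed by at most 0.17 in size. E2F5 overlaps C8orf59 and E2F8 overlaps AC009652.2 on the other strand.

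Whether the RARA-selective Am80 acted differently from ATRA was compared directly. None of the 36 genes was called between Am80 and ATRA, where 0.0478% of all genes tested were (0.0273% higher with Am80 and 0.0205% lower), and none by edgeR or DESeq2. At an unadjusted p under 0.05 limma gave 6, all higher with Am80: CCNE2 at 0.35 (adjusted p = 0.0768), CDK1 at 0.39 (adjusted p = 0.0787), CDKN3 at 0.36, CDC25C at 0.35, CCNA2 at 0.18 and CCNB2 at 0.16. For 31 of the 36 genes, the 95% interval stayed between the 2 limits of 1.5-fold. The exceptions were CCNA1 (-0.73 to 0.92), CDK1 (0.19 to 0.59), CDC25C (0.08 to 0.62), CDKN2A (-0.17 to 0.61) and CDKN3 (0.13 to 0.60). CDKN2D, which rose with either, differed by 0.11 between them (95% interval -0.23 to 0.45).

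With the inhibitors present, Am80 and ATRA gave no call among the 36 tested by limma, edgeR or DESeq2, nor among all genes (0%) by limma or edgeR. At an unadjusted p under 0.05 limma gave 10 of the 36. The largest were E2F7 at -0.51 (95% interval -0.78 to -0.24, adjusted p = 0.13) and CDKN2D at 0.50 (95% interval 0.16 to 0.84, adjusted p = 0.166). CCND1 was -0.26, E2F1 0.25, E2F5 -0.32, E2F8 -0.24, RB1 -0.19, CCNE2 -0.19, WEE1 -0.18 and RBL2 -0.16. The interval stayed between those limits for 32 genes and crossed them for CCNA1, CDKN2D, E2F5 and E2F7. The effect of the inhibitors did not differ detectably by retinoid for any of the 36 (0 called, 0% of all genes, 8 at an unadjusted p under 0.05, none by edgeR or DESeq2). The smallest adjusted p was 0.226, for CCNE2 and CCNA2.

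**Figure D4:**
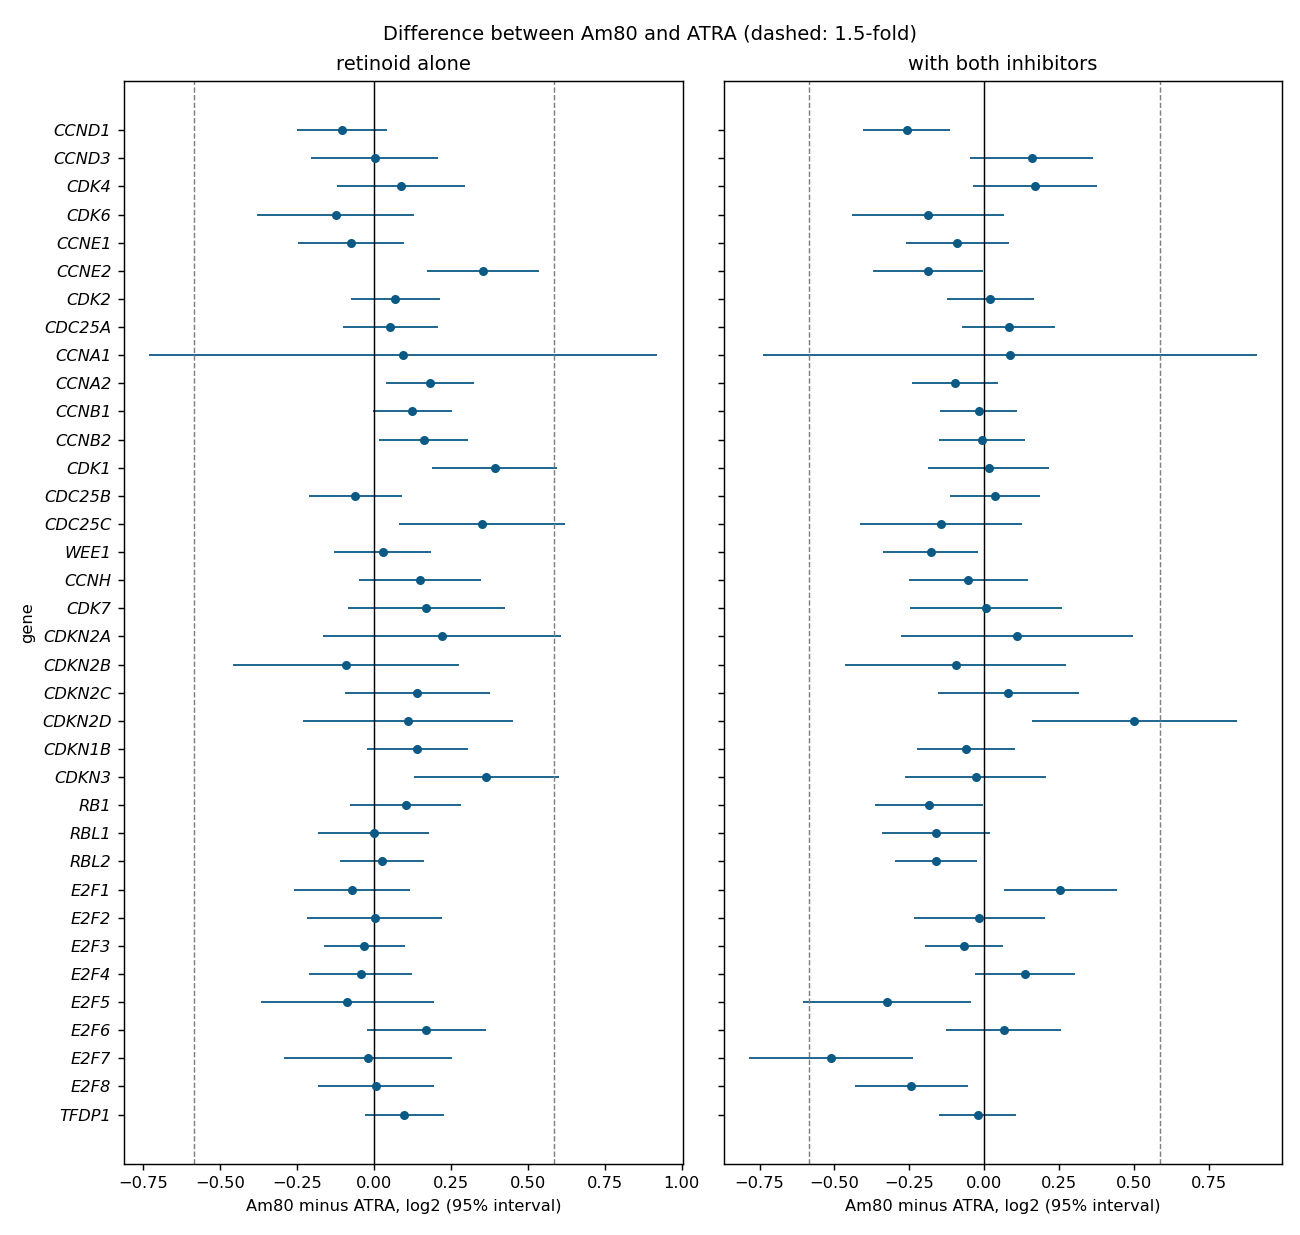
Difference between Am80 and ATRA on the log2 scale (x axis, point with 95% interval) for the 36 genes, without the inhibitors (left) and with them (right). Dashed lines mark 1.5-fold; 31 intervals on the left and 32 on the right lie between them, and CCNA1 has the widest in both.

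The targets and partners of this machinery were followed in 5 further lists, of which all members were tested. Of 37 replication licensing and S phase genes, many of them E2F targets, none was called with either retinoid alone, 6 fell in the ATRA combination and 2 in the Am80 combination, and none rose. These are 16.2% and 5.41% of the list, where 14.8% and 13.1% of all genes were called lower. Their medians with the combinations were -0.19 and -0.14. UNG, a uracil glycosylase of replicated DNA, was at -0.71 and -0.70, and RRM2, a subunit of ribonucleotide reductase, at -0.62 and -0.76, both called with each. By adjusted p alone, 19 of the 37 were lower and 5 higher in the ATRA combination. Of all 14643 genes tested, 4397 were lower and 4422 higher there. In the Am80 combination 17 of the 37 were lower and 5 higher, where 3901 and 4103 of all genes were. Of 25 mitosis genes, none was called with either retinoid, where 9.45% and 10.2% of all genes were. Only 1, PLK1, fell with each combination (-0.62 and -0.60), 4% of the list, where 14.8% and 13.1% of all genes were called lower. By adjusted p alone, 9 of the 25 were higher and 1 lower with Am80, where 2253 and 1958 of all genes were. With ATRA 1 was higher and 4 lower, where 1831 and 1778 of all genes were. The combinations each gave 9 higher, with 6 lower beside ATRA and 5 lower beside Am80.

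Of 9 genes of the MuvB complex and its partners MYB and FOXM1, LIN52 (0.80 and 0.96) and LIN54 (0.87 and 0.68) rose with both combinations. The 2 genes are 22.2% of the list, where 14.2% and 12.9% of all genes were called higher. LIN37 fell with ATRA alone (-0.59), just past the limit. It is 11.1% of the list, where 2.94% of all genes were called lower. Of 21 genes of the ubiquitin ligases that degrade cyclins and inhibitors, none was called with a retinoid alone. Of all genes, 9.45% were called with ATRA and 10.2% with Am80. In the ATRA combination 1 of the 21 rose, and in the Am80 combination 4 rose and 2 fell. These are 4.76% and 28.6% of the list beside 29.1% and 26% of all genes. FBXW7, which targets cyclin E, rose with both (0.74 and 0.72), and ANAPC10, a subunit of the anaphase promoting complex, was 0.58, under the limit, in the ATRA combination and rose in the Am80 combination (0.80). SKP2, which targets CDKN1B, was -0.44 in the ATRA combination, under the limit, and fell in the Am80 combination (-0.76). ANAPC4 was -0.33 and -0.64, the second called. ANAPC10 was also the gene of these lists called between the retinoids, 0.72 higher on the log2 scale with Am80 than with ATRA. Of 29 other cyclins, kinases and inhibitors, none was called with ATRA. With Am80, 3 rose (CCNG1 at 0.73, CDKN1A at 0.69 and CDK17 at 0.62) and CDK20 fell (-0.66). These 4 are 13.8% of the list, beside 10.2% of all genes (6.41% higher and 3.76% lower). In the ATRA combination 6 rose and 4 fell, and in the Am80 combination 7 rose and 2 fell. These last counts are 34.5% and 31% of the list, close to the 29.1% and 26% of all genes. CDK17 (1.06 and 1.08) and CCNL1 (0.96 and 0.92) led the increases. CDK20 had the largest decrease of all these lists (-1.98 and -2.24), and PKMYT1, a kinase that inhibits CDK1, was -0.83, called, and -0.46, under the limit. CDKN1A, a p53 target and CIP/KIP inhibitor singled out after its values were seen, was 0.58 with ATRA, 0.69 with Am80, 0.33 in the ATRA combination and 0.72 in the Am80 combination, called with Am80 and in the Am80 combination.

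**Figure D5:**
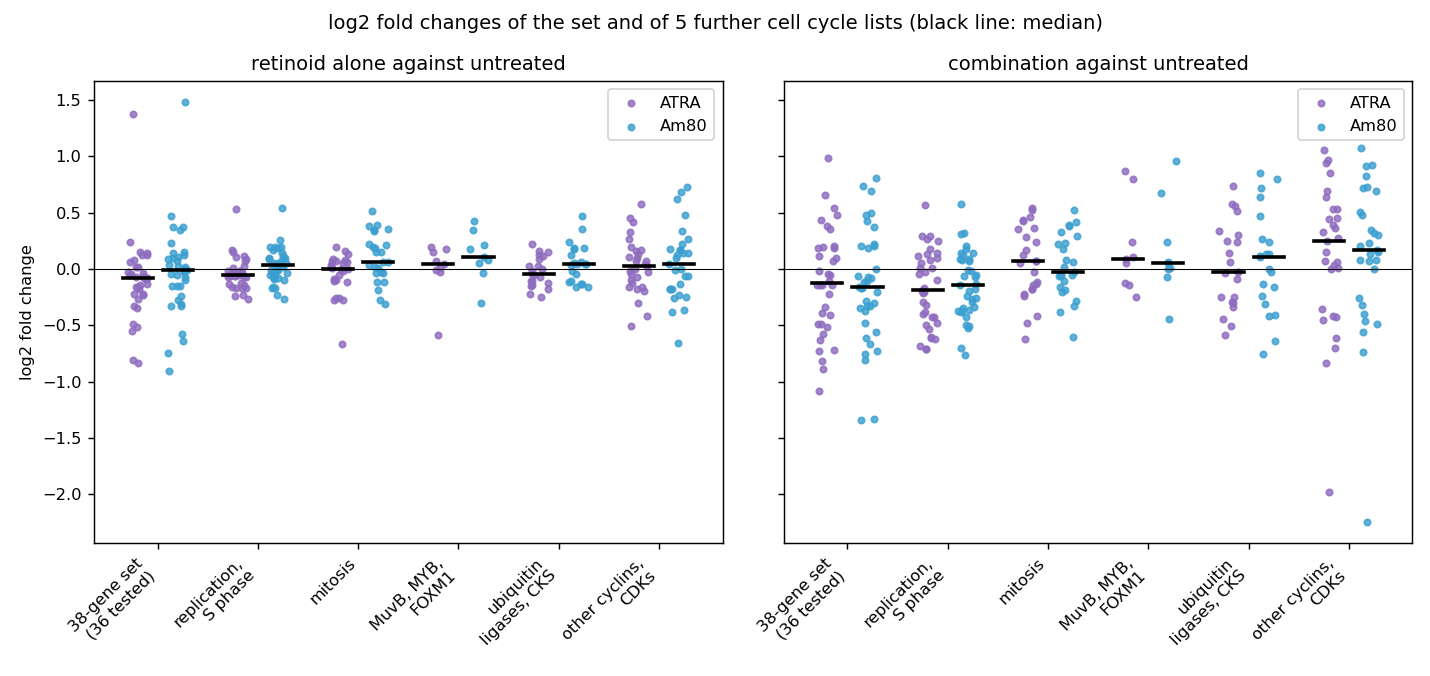
Log2 fold change against untreated cells (y axis) of each tested gene of the set and of the 5 further lists (x axis), with ATRA and Am80 in separate colours, for the retinoids alone (left) and with the inhibitors (right). Black lines are medians, which lie between -0.08 and 0.11 on the left and between -0.19 and 0.25 on the right; the lowest points on the right are CDK20.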

How the data were processed

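RNA-seq of OCI-AML3 cells gave 16 libraries in 5 groups, taken from the labels, with doses and time from the study's methods. The signal values are DESeq2-normalized counts deposited by the authors, who per the labels used FastQC, cutadapt, STAR, featureCounts and DESeq2. Versions, genome build, annotation and strand setting are not given in the sources used here, and the labels name other kits for extraction and library preparation than the study's methods do. All 62700 identifiers matched a symbol, and multiplying each library by its factor gave whole reads for 100% of the values (tolerance 0.001). At the depth per library given with the results, a gene with at most 3 reads counts as at the floor, which covers counting error only. No 2 repeats agreed within counting error (chi-square per degree of freedom 2.75 to 25.9 over 18 pairs).

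Values were log2(normalized count + 1) of genes with a mean of at least 10. One limma fit (3.58.1, R 4.3.3, with a mean-variance trend) of all 16 libraries, with 11 residual degrees of freedom, gave 9 comparisons. P-values were adjusted by Benjamini-Hochberg over 14643 genes. Alternatives were edgeR 4.0.16 and DESeq2 1.42.0 on the recovered reads, other pseudocounts, filters, scalings and limits, a replicate block, only the groups compared, and each library left out. Levels per kilobase used the union of exons in GENCODE 29. The fit was tested on simulated data. Every member is named, called members in full, and from each further list up to 2 called genes a direction by mean change over both combinations. The members and lists were chosen with earlier results of these data known. Some marker genes of other lineages are not reported here.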

Additional observations from a re-analysis of the deposited data

Results flagged for a closer look

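In 5 of the 38 genes, 1 of the 4 untreated libraries lay far from the others by Dixon's test at 95%, which chance gives in about 1 in 20 groups. The values were 6653 for CCND3, 833.2 for CDKN2C and 5375 for TFDP1, all highest in replicate 4, 2264 for E2F4, lowest in replicate 2, and 5.578 normalized counts (4 reads) for CCND2, highest in replicate 1. Replicate 4 was the most distant untreated library for 21 of the 38 genes. The groups of 3 were not examined in this way.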

How the results depend on the processing

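The counts of called genes are given in the order ATRA, Am80, the ATRA combination and the Am80 combination, each against untreated cells, then inhibitors added to ATRA and to Am80, and were 2, 3, 7, 9, 8 and 7. By adjusted p alone they were 11, 11, 22, 25, 20 and 19, and with adjusted p under 0.01 and a log2 change above 1 they were 1, 1, 1, 2, 2 and 3. Both follow from the limits themselves. Quantile normalization gave 4 for ATRA and 5 for Am80, adding CDKN2A and CCNA1 for ATRA and E2F5 and CCNA1 for Am80, and scaling to total reads gave 11 for the ATRA combination. The cause was not tested. Each library left out in turn gave 2 to 4, 3 to 4, 6 to 8, 8 to 11, 8 to 8 and 6 to 7 calls. The 4 for ATRA came without untreated replicate 1, with CDKN2A and CCNA1 gained. The interaction gave 0 to 1, the 1 being CCNE2 without Am80 replicate 3, and both comparisons of Am80 with ATRA stayed at 0. The counts were 2, 3, 7, 10, 8 and 7 by edgeR, which called 1414, 1583, 4274, 3771, 2915 and 2385 of all genes, and 2, 3, 7, 9, 8 and 7 by DESeq2.

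The fit with the replicate number as a block gave 3, 3, 6, 8, 8 and 7, with 2 calls lost (E2F1 in the ATRA combination, CDKN2A in the Am80 combination) and 1 gained (CDK6 with ATRA). Libraries share only a number: 2 of 30 same-numbered pairs had deviations correlated above 0.1 (range -0.112 to 0.143). Of 36 calls, 27 held in every alternative in which the gene was tested, other than the stricter limits. The stricter limits were passed by 10, and none reversed. CCNA1, with 2 of the 27, was not tested with the filter at a mean of 50. Scaling to total reads moved the median of all genes to -0.16 and -0.13 for the inhibitors added to ATRA and Am80, and the higher share of called genes from 41.7% and 43.3% to 20.9% and 26.5%. For Am80 against untreated cells that share went from 63% to 52.8%. Depth limits CCNA1, CCND2 and CDKN1C, which had at most 20 reads in any library.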
